A study of Mus musculus with 6 samples.

Results

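The transcripts described here belong to 9 genes used by neurons of the peripheral nervous system, out of 23073 genes with values in 6 RNA-Seq libraries of mouse diaphragm muscle at E14.75. They were chosen by name, to ask whether sensory or autonomic neurons of the Wnt1-Cre lineage contribute RNA to the libraries. The libraries came from erbB3 WT muscle (wild-type 5 and 6), from erbB3 KO muscle (mutant 1 and 2), which the labels describe as lacking Schwann cells, and from muscle of animals labelled Wnt1-Cre, Ribotag and erbB3 WT (Wnt1-Ribotag 1 and 2). In the last group Wnt1-Cre switches on a ribosomal protein with a hemagglutinin tag. Polysomes were precipitated with an antibody against the tag before RNA was taken, whereas for the other libraries total RNA of the muscle was isolated. Messenger RNA was then purified on oligo-dT beads for both kinds of library. Wnt1-Cre acts in the neural crest, so crest derivatives other than Schwann cells can carry the tag. By the paper, all diaphragms of a litter were homogenised before genotyping, which then found only a part of the embryos to be Cre-positive. The paper counts the pooled Cre-positive diaphragms of a litter as 1 sample, and whether diaphragms without Cre stayed in the homogenate is not made clear. Each Wnt1-Ribotag library was made from far less RNA than the libraries of whole muscle. The Wnt1-Ribotag and mutant libraries differ both in erbB3 genotype and in RNA preparation, and these cannot be told apart in a comparison of these groups.

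Neurons of the sensory and autonomic ganglia arise from the neural crest, as do Schwann cells and the chromaffin cells of the adrenal medulla, whereas motor neurons of the phrenic nerve have their cell bodies in the spinal cord, outside the muscle. Sympathetic neurons and chromaffin cells make catecholamines, in steps that begin with tyrosine hydroxylase and go on to dopamine beta-hydroxylase, under transcription factors such as Phox2a and Hand2. Sensory neurons of the dorsal root ganglia pass through a phase with the transcription factors Pou4f1 and Isl1, and Isl1 is used by sympathetic and motor neurons too.

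Values are RPKM, reads scaled to the length of the gene and to the mapped reads of the library, so that levels of different genes can be compared per length. Where a gene had no read, the files hold a low value, called the floor here, that depends on gene length and library depth. From these values, wild-type 5 had 100178863 mapped reads and wild-type 6 had 229922644, mutant 1 had 130755581 and mutant 2 had 230216660, and Wnt1-Ribotag 1 had 122770245 and Wnt1-Ribotag 2 had 171266729. Fewer genes exceeded the floor in Wnt1-Ribotag 1 (17205) and Wnt1-Ribotag 2 (17945) than in the other libraries (19492 to 20349). Each of the 9 neuronal genes exceeded it in every library. Across genes that averaged at least 0.5 RPKM in a group, which are not independent replicates, Pearson's r between the replicates on the log2 scale was 0.99 in wild-type, 0.984 in mutant and 0.926 in Wnt1-Ribotag libraries, and the median absolute difference between replicates was 0.13, 0.19 and 0.39.

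The group labels were first set against marker genes. Sox10, a transcription factor of Schwann cells and their precursors, had an RPKM of 2.89 and 2.16 in the wild-type libraries, 0.00854 and 0.0178 in the mutant libraries, and 15.5 and 32.2 in the Wnt1-Ribotag libraries. It was thus near 0 in mutant muscle and highest in the tagged-ribosome RNA, with no overlap between the groups. Erbb3 itself did not tell the genotypes apart, with an RPKM of 16.5 and 15.8 in wild-type and of 21.5 and 11.9 in mutant libraries, so the genotypes are those of the labels. Muscle RNA was still abundant after the precipitation. Mylpf, a myosin light chain of fast muscle, had an RPKM of 797 and 795 in the Wnt1-Ribotag libraries, against 1293 and 995 in the wild-type libraries.

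Tubb3 (ENSMUSG00000062380, on chromosome 8 of GRCm38 from 123411424 to 123422015) encodes the neuronal beta-tubulin. In wild-type 5 and 6 the RPKM of Tubb3 was 2.23 and 13.5, in mutant 1 and 2 it was 0.937 and 1.12, and in Wnt1-Ribotag 1 and 2 it was 28.1 and 96.1. Both Wnt1-Ribotag libraries lay above both wild-type libraries, and both mutant libraries lay below them. The group means were 7.87 ± 7.97 in wild-type, 1.03 ± 0.132 in mutant and 62.1 ± 48.1 in Wnt1-Ribotag muscle (SD, n = 2 each). Stmn2 (ENSMUSG00000027500, chromosome 3 from 8509360 to 8561606), a microtubule regulator of growing axons, had the highest level of the 9 genes in the Wnt1-Ribotag libraries. In wild-type 5 and 6 the RPKM of Stmn2 was 2.51 and 15.5, in mutant 1 and 2 it was 1.81 and 2.69, and in Wnt1-Ribotag 1 and 2 it was 42.9 and 211. By RPKM Stmn2 was number 251 of all 23073 genes in Wnt1-Ribotag 2 and number 1334 in Wnt1-Ribotag 1. It was number 11046 in wild-type 5, number 4363 in wild-type 6, number 11637 in mutant 1 and number 10488 in mutant 2. The wild-type and mutant libraries overlapped in Stmn2, since mutant 2 was above wild-type 5.

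Neurofilaments and peripherin fill and support the axon. Prph (ENSMUSG00000023484, chromosome 15 from 99055174 to 99058978) encodes peripherin, a filament of peripheral neurons. In wild-type 5 and 6 the RPKM of Prph was 1.99 and 11.3, in mutant 1 and 2 it was 0.615 and 1.39, and in Wnt1-Ribotag 1 and 2 it was 11.7 and 51.4. Wild-type 6 and Wnt1-Ribotag 1 were nearly level in Prph, although the groups did not overlap. Nefl (ENSMUSG00000022055, chromosome 14 from 68083863 to 68089095), the light neurofilament chain, had an RPKM of 2.57 and 10.6 in wild-type 5 and 6, 0.967 and 2.17 in mutant 1 and 2, and 14.0 and 64.6 in Wnt1-Ribotag 1 and 2. Nefm (ENSMUSG00000022054, chromosome 14 from 68082590 to 68124846), the medium chain, had an RPKM of 2.30 and 11.7, 0.790 and 2.10, and 9.59 and 45.9 in the same order. Nefm was the filament gene in which the groups overlapped, with Wnt1-Ribotag 1 below wild-type 6. The annotated spans of Nefl and Nefm overlap on opposite strands, and whether the counting used strand is not given in the sources used here, so reads in the shared stretch cannot be told apart.

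Th (ENSMUSG00000000214, chromosome 7 from 142892752 to 142931128) encodes tyrosine hydroxylase, which makes L-DOPA and limits the rate of catecholamine synthesis. In wild-type 5 and 6 the RPKM of Th was 0.286 and 5.01, in mutant 1 and 2 it was 0.0484 and 0.101, and in Wnt1-Ribotag 1 and 2 it was 5.5 and 38.9. Th had the widest spread of the 9 genes, with wild-type 6 at 17.5 times wild-type 5 and a little under Wnt1-Ribotag 1. Dbh (ENSMUSG00000000889, chromosome 2 from 27165233 to 27183200), the enzyme that turns dopamine into noradrenaline, had an RPKM of 1.26 and 7.64 in wild-type 5 and 6, of 0.717 and 0.785 in mutant 1 and 2, and of 16.7 and 61.5 in Wnt1-Ribotag 1 and 2. For Dbh the order of the groups was mutant, wild-type and Wnt1-Ribotag with no overlap.

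The transcription factors differed from the rest. Isl1 (ENSMUSG00000042258, chromosome 13 from 116298281 to 116309689) had an RPKM of 3 and 6.60 in wild-type 5 and 6, of 4.12 and 3.34 in mutant 1 and 2, and of 7.08 and 18.5 in Wnt1-Ribotag 1 and 2. In mutant muscle it was the most abundant of the 9 genes, and its mutant libraries lay between the wild-type libraries. Pou4f1 (ENSMUSG00000048349, chromosome 14 from 104461676 to 104467999), the sensory neuron factor Brn3a, had an RPKM of 0.575 and 0.504 in wild-type 5 and 6, of 0.492 and 0.341 in mutant 1 and 2, and of 0.558 and 0.371 in Wnt1-Ribotag 1 and 2. All 6 values of Pou4f1 lay within a narrow low range in which the Wnt1-Ribotag libraries overlapped with both other groups, and it was the member in which neither Wnt1-Ribotag 2 nor wild-type 6 was the higher of its pair.

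**Figure D1:**
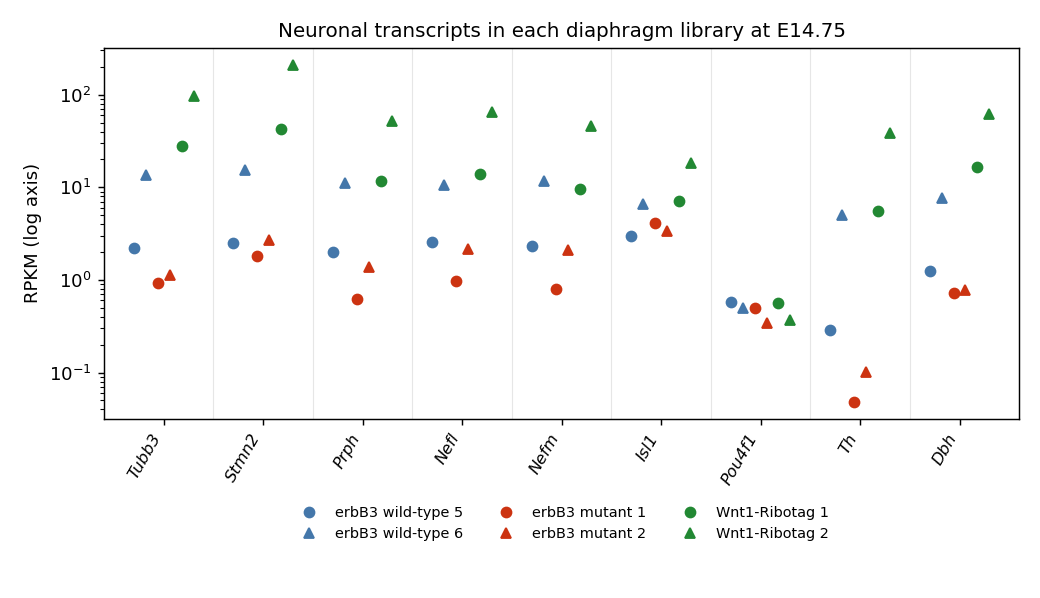
RPKM of the 9 neuronal genes on a log axis, with 1 point for each of the 6 libraries; colours give the group and symbols the library within it. Wnt1-Ribotag 2 is the highest point for each gene but Pou4f1, whose 6 values lie between 0.341 and 0.575.

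Levels were compared between groups as log2(RPKM + 0.5) with limma, for genes that averaged at least 0.5 RPKM across the 4 libraries of a comparison, with p-values adjusted over all of them; the added 0.5 shrinks the fold changes of low genes. With 2 libraries a group, an exact permutation test of a single gene cannot give a p below 0.33. The p-values measure only the spread between these libraries. In whole-muscle and in precipitated RNA, fewer cells of a type and less RNA per cell cannot be told apart.

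Between Wnt1-Ribotag and wild-type libraries, the neuronal genes differed by amounts that the test did not tell from the spread within the groups. All 9 genes were tested, and 8 were higher in Wnt1-Ribotag, with a median difference of 2.39 on the log2 scale, whereas over all 14418 genes tested the median was -0.05 and 45.6% were higher. The log2 fold change was 3.79 (SE 1.05) for Stmn2, 3.10 (SE 0.92) for Dbh, 3.09 (SE 0.93) for Tubb3 and 2.89 (SE 1.24) for Th. It was lower for the filament genes, at 2.39 (SE 0.91) for Nefl, 2.21 (SE 0.97) for Prph and 1.89 (SE 0.97) for Nefm, while Isl1 had 1.27 (SE 0.55) and Pou4f1 -0.11 (SE 0.36). By limma 0 of the 9 genes passed an adjusted p of 0.05, with values between 0.192 for Stmn2 and 0.885 for Pou4f1, and 4 had an unadjusted p under 0.05. In the fit of all 23073 genes without a filter on low values, 1 of the 9 had an unadjusted p under 0.05, against 17% of all genes. Of all genes, 0.00694% passed, 1 gene, the spectrin gene Sptb (log2 fold change 8.61, SE 0.23, adjusted p = 0.00311 from limma), named here after its values were seen, and 2813 genes had an unadjusted p under 0.05.

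Counted by pairs of single libraries, Stmn2, Dbh and Tubb3 were at least 2-fold higher in Wnt1-Ribotag in all 4 pairs, against 1.51% of all genes tested, and 0 of the 9 were at least 2-fold lower in all pairs, against 0.825%. For Tubb3 the difference ran from 1.03 to 5.15 on the log2 scale over the 4 pairs, and for Stmn2 from 1.44 to 6.13. In 7 of the 9 genes both Wnt1-Ribotag libraries were above both wild-type libraries, which held for 23.3% of all genes. At a threshold of 3-fold the count in all pairs was 0. Without wild-type 6, 6 of the 9 genes passed in limma and 8 were at least 2-fold higher in the remaining pairs (2.66% of all genes), and the log2 fold change was 4.27 for Tubb3, 4.99 for Stmn2 and 4.29 for Th. Without wild-type 5 the same values were 1.91, 2.58 and 1.48, with 0 genes past the threshold. Without Wnt1-Ribotag 1, 8 genes passed and 8 were at least 2-fold higher in the remaining pairs (5.5% of all genes), and without Wnt1-Ribotag 2, 0 passed and Pou4f1 changed sign, to 0.03. A fit with a lone library in a group assumes that it varies like the other group. The number of all genes past the threshold was then 26 without wild-type 5, 67 without wild-type 6, 4482 without Wnt1-Ribotag 1 and 5965 without Wnt1-Ribotag 2. With all 6 libraries in the fit it was 138, with 85 higher and 53 lower in Wnt1-Ribotag, and 0 of them were members (lowest adjusted p in limma 0.0849, for Stmn2).

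Between Wnt1-Ribotag and mutant libraries, Tubb3, Stmn2, Dbh and Prph were higher past the threshold. On the log2 scale Tubb3 was higher by 5.10 (SE 0.53, adjusted p = 0.014 in limma), and the difference was 5.14 (SE 0.68, adjusted p = 0.0268) for Stmn2, 4.70 (SE 0.56, adjusted p = 0.0198) for Dbh and 4.11 (SE 0.65, adjusted p = 0.047) for Prph. These are 4 of the 8 genes tested, against 1.19% of all 14325 genes, and Pou4f1 was under the limit of expression. The 4 other genes tested missed the threshold, with log2 fold changes of 4.74 for Th (SE 0.79, adjusted p = 0.0533), 3.96 for Nefl (SE 0.68, adjusted p = 0.0571), 3.56 for Nefm (SE 0.70, adjusted p = 0.0803) and 1.51 for Isl1 (SE 0.43, adjusted p = 0.156), all from limma. Over the 8 genes the median difference was 4.41, and over all genes tested it was 0.04.

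In all 4 pairs of libraries, 7 of the 8 genes were at least 2-fold higher in Wnt1-Ribotag, against 3.34% of all genes tested, and 0 were at least 2-fold lower, against 0.607%. Isl1 was the exception, with a lowest pair difference of 0.71 on the log2 scale. Th averaged 0.0747 RPKM in mutant libraries and entered the test through Wnt1-Ribotag. Of the 7 others 6 were at least 2-fold higher in all pairs, against 2.01% of the 13458 genes that averaged 0.5 RPKM or more in both groups, and their median difference was 4.11. In all 8 genes both Wnt1-Ribotag libraries were above both mutant libraries, as they were in 29.7% of all genes. For Tubb3 the pair differences ran from 4.14 to 6.07. The number of members past the threshold was 0 when no filter on low values was used, where 7 of the 9 and 17.3% of all genes had an unadjusted p under 0.05. It was 2 after quantile normalization, and it was 7 without either mutant library and 8 without either Wnt1-Ribotag library. The number of all genes past it was 171, and it was 153 without mutant 1, 112 without mutant 2, 2538 without Wnt1-Ribotag 1 and 3672 without Wnt1-Ribotag 2. With all 6 libraries in the fit it was 692, with 459 higher and 233 lower in Wnt1-Ribotag, and 5 members passed, Nefl in addition. Of the 171 genes 61 averaged under 0.5 RPKM in a group, and 0 of the 4 members did.

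Between mutant and wild-type muscle the neuronal genes were lower on average in the mutant, and the size of the difference depended on which wild-type library was used. The wild-type libraries are those of the comparison with Wnt1-Ribotag. All 8 genes tested had a negative log2 fold change, with a median of -1.64, where the median of all 14052 genes tested was -0.10. The values were -2.02 (SE 0.61) for Tubb3, -1.90 (SE 0.61) for Prph, -1.86 (SE 0.73) for Th, -1.67 (SE 0.61) for Nefm, -1.60 (SE 0.58) for Dbh, -1.56 (SE 0.54) for Nefl, -1.35 (SE 0.63) for Stmn2 and -0.24 (SE 0.30) for Isl1. By limma 0 of the 8 passed an adjusted p of 0.05, against 0.171% of all genes, while 6 of the 8 and 1691 of all genes had an unadjusted p under 0.05. Without the filter 0 of the 9 members and 9.34% of all genes did. The lowest adjusted p of the 8 was 0.321, for Tubb3. By pairs, 0 of the 8 were lower by 2-fold or more in mutant muscle in all 4, against 0.399% of all genes, and 0 were higher by as much, against 0.0498%. In 6 of the 8 genes both mutant libraries were below both wild-type libraries, as in 37.4% of all genes, and Stmn2 and Isl1 were the others.

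Without wild-type 6, 0 of the 7 genes tested passed, and the log2 fold change was -0.84 for Tubb3, -0.50 for Dbh, -0.15 for Stmn2 and 0.27 for Isl1, which changed sign. Without wild-type 5, 7 of the 8 genes passed, with -3.20 for Tubb3, -3.26 for Th and -2.70 for Dbh, and 7 were at least 2-fold lower in the remaining pairs (0.842% of all genes). Th entered this comparison through wild-type 6 alone, and without that library it was not tested. Without mutant 2, 3 genes were at least 2-fold lower in the remaining pairs (0.617% of all genes). The number of all genes past the threshold was 24, and it was 106 without wild-type 5, 90 without wild-type 6 and 10 without mutant 2. Of the 24 genes, 7 were higher and 17 lower in the mutant, whereas without mutant 2 more of the genes past the threshold were higher than lower. In limma 0 genes passed with all 6 libraries in the fit, where 495 had an unadjusted p under 0.05, and 0 without the filter, where 2155 did. Scaling the libraries by the median of their gene ratios moved the median of all genes from -0.10 to 0.004, the split to 11 higher and 16 lower (from 29.2% to 40.7% higher), and the median of the 8 neuronal genes to -1.54.

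Wild-type 6 stood between wild-type 5 and Wnt1-Ribotag 1 in 7 of the 9 genes, with Nefm and Pou4f1 as exceptions. The summed RPKM of the 9 genes was 16.7 and 82.3 in wild-type 5 and 6, 10.5 and 14 in mutant 1 and 2, and 136 and 588 in Wnt1-Ribotag 1 and 2. Relative to the summed RPKM of a list of 20 Schwann cell genes, which was 132, 125, 122, 104, 295 and 585 in the same order, the neuronal sum was 0.126, 0.66, 0.0857, 0.135 and 0.462, and in Wnt1-Ribotag 2 the sums were nearly equal. The Schwann cell sum was little lower in mutant than in wild-type muscle, and its most abundant gene there was Pmp22. Per RPKM of Sox10 instead, Tubb3 was at 0.772 and 6.24 in wild-type 5 and 6 and at 1.81 and 2.99 in Wnt1-Ribotag 1 and 2. Each of the 9 genes was higher per Sox10 in wild-type 6 than in both Wnt1-Ribotag libraries, so the order of the libraries depends on the Schwann cell measure used.

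Within the Wnt1-Ribotag and the wild-type group, the libraries differed more in most of the neuronal genes than in most other genes. In Wnt1-Ribotag 2 minus Wnt1-Ribotag 1, the 8 members that averaged 0.5 RPKM or more were higher in library 2, by a median of 2.13 on the log2 scale, and the differences ran from 1.32 for Isl1 to 2.71 for Th. Over all 14406 genes the median was 0.16, with an SD of 0.72, and 8.33% of genes were at least 2-fold higher in library 2. Ranked by this difference, Th was number 61 of the 14406 genes, Stmn2 number 133, Nefm number 152, Dbh number 268 and Tubb3 number 326. As ratios of RPKM, Wnt1-Ribotag 2 was 7.07 times Wnt1-Ribotag 1 for Th, 4.91 times for Stmn2, 4.78 times for Nefm, 3.42 times for Tubb3 and 0.665 times for Pou4f1. These are differences between single libraries, and they have no replicate check.

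Between the wild-type libraries the members stood near the top of a narrower distribution. Over all 14158 genes the median difference was 0.05, with an SD of 0.26, and 0.501% of genes were at least 2-fold higher in wild-type 6. The median of the 9 members was 2.21, and 8 of them were at least 2-fold higher. By this difference Th was number 3 of the 14158 genes, Stmn2 number 5, Tubb3 number 6, Prph number 11, Dbh number 13, Nefm number 17, Nefl number 21 and Isl1 number 69, whereas Pou4f1 was number 11179. Between the mutant libraries the members differed less, with a median of 0.46 in favour of mutant 2 over 7 genes, from -0.27 for Isl1 to 1.01 for Nefm.

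**Figure D2:**
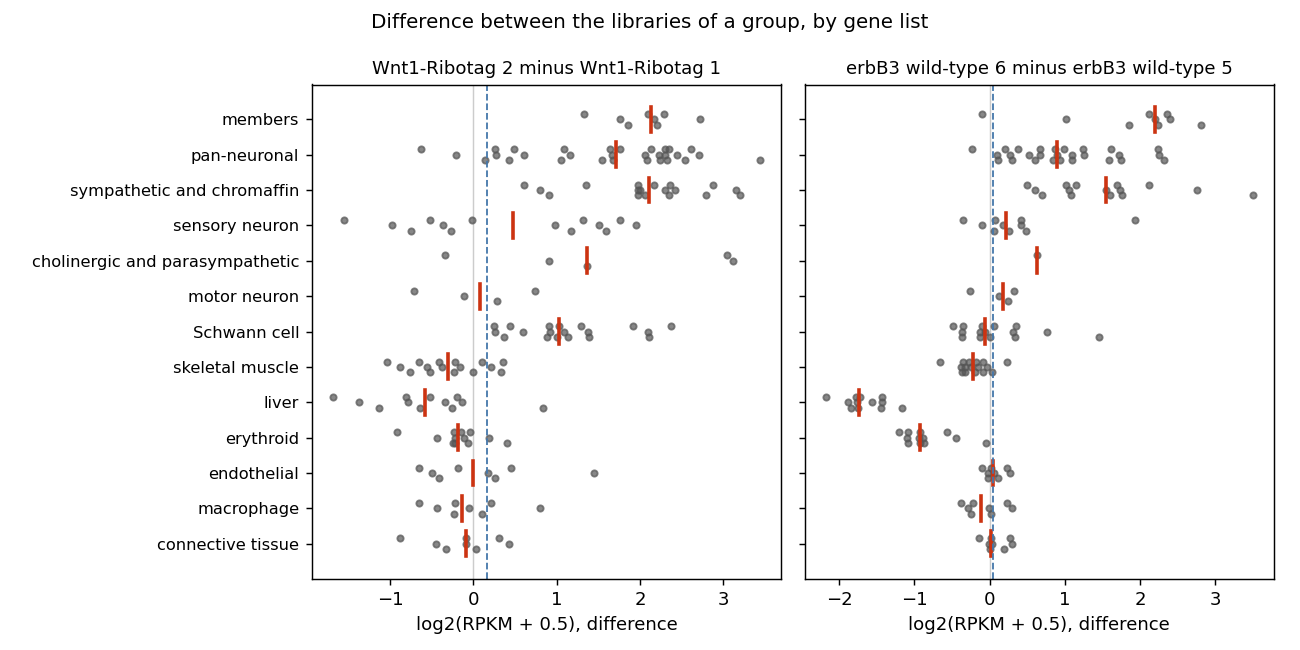
Difference in log2(RPKM + 0.5) between the libraries of a group for genes of each list that averaged 0.5 RPKM or more in that group, with 1 grey point a gene, the list's median as a red line and the median of all genes as a dashed line. The median of the neuronal members was 2.13 between the Wnt1-Ribotag libraries and 2.21 between the wild-type libraries, and the liver list lay below 0 in both, at -0.58 and -1.73.

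The members also differed in their proportions to each other. Taken as a percentage of the RPKM of Tubb3 in the same library, Dbh was at 56.7% and 56.6% in wild-type, 76.4% and 69.9% in mutant, and 59.3% and 63.9% in Wnt1-Ribotag libraries. Th varied more, at 12.8%, 37.1%, 5.16%, 8.98%, 19.6% and 40.5% in the same order. The filament genes stood lower against Tubb3 in the Wnt1-Ribotag libraries, where Nefm was at 34.1% and 47.7%, than in the wild-type libraries, where it was at 103% and 86.6%. Isl1 was at 25.2% and 19.2% of Tubb3 in the Wnt1-Ribotag libraries and at 440% and 297% in the mutant libraries. Stmn2 exceeded Tubb3 in each library, from 113% in wild-type 5 to 239% in mutant 2.

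Autonomic and sensory genes beyond the members gave different pictures. A list of 18 sympathetic and chromaffin genes had 15 genes with an RPKM of at least 1 in Wnt1-Ribotag 1 and 18 in Wnt1-Ribotag 2, against 3 in wild-type 5, 14 in wild-type 6 and 2 in each mutant library. A list of 26 sensory neuron genes had 9 and 12 such genes in the Wnt1-Ribotag libraries, 7 and 9 in the wild-type and 7 and 8 in the mutant libraries. Over all genes the share at an RPKM of at least 1 lay between 54.8% and 57.7% in the 6 libraries. In Wnt1-Ribotag 1 and 2 the sympathetic and chromaffin list had a median RPKM of 4.30 and 21.8, and the sensory list of 0.342 and 0.928.

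The transcription factors of the sympathetic and adrenal lineage were abundant in the tagged-ribosome RNA. Phox2a, which autonomic neurons use, had an RPKM of 0.448 and 3.62 in wild-type, 0.288 and 0.218 in mutant and 9.71 and 40.3 in Wnt1-Ribotag libraries. Hand2, which acts in sympathetic neurons and also in the developing heart and limbs, was at 4.20 and 9.26, 2.54 and 3.08, and 18.7 and 74.7. In both genes the groups had the order mutant, wild-type and Wnt1-Ribotag without overlap, as in Dbh, and wild-type 6 was the higher wild-type library. Insm1, a factor of neuroendocrine cells, was at 0.970 and 6.11 in the Wnt1-Ribotag libraries and at most at 0.347 elsewhere.

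Genes of catecholamine handling and secretion were highest in Wnt1-Ribotag 2, and the order of the other libraries differed from gene to gene. Slc18a2, the vesicular monoamine transporter, had an RPKM of 4.41 and 8.07 in the Wnt1-Ribotag libraries, 0.703 and 2.18 in wild-type and 0.643 and 0.619 in mutant libraries. Slc6a2, the noradrenaline transporter, was at 0.701 and 7.85, 0.115 and 1.36, and 0.0205 and 0.0217 in the same order, so that Wnt1-Ribotag 1 was below wild-type 6. Npy, a peptide stored with noradrenaline, was at 22.6 and 118, 0.726 and 13.4, and 0.172 and 0.887, so that mutant 2 was above wild-type 5. It was the most abundant gene of the list in both Wnt1-Ribotag libraries and in wild-type 6. Chga, a protein of secretory granules, was at 10.7 in Wnt1-Ribotag 1 and 99.4 in Wnt1-Ribotag 2, and Pnmt, the enzyme that makes adrenaline in chromaffin cells, named after its values were seen, was at 2.44 and 21.1. Pnmt was at 0.420 and 0.280 in the wild-type libraries, and of the 18 genes of the list it was the one in which wild-type 6 was below wild-type 5. Ddc, an enzyme of the pathway with other uses outside neurons, was the most abundant gene of the list in mutant muscle, at 18.1 and 11, and overlapped between the groups.

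In the comparison with mutant libraries 6 of the 18 genes of this list passed, against 1.19% of all genes. Each of the 6 was higher in Wnt1-Ribotag, and Phox2a, Hand1, Slc18a2, Chga and Npy were among them. The difference from mutant libraries was 4.76 (SE 0.60, adjusted p = 0.0246 in limma) for Phox2a, 4.45 (SE 0.63, adjusted p = 0.0348) for Hand1, 2.52 (SE 0.35, adjusted p = 0.0319) for Slc18a2, 5.77 (SE 0.90, adjusted p = 0.0456) for Chga and 5.76 (SE 0.75, adjusted p = 0.0262) for Npy. Without the filter on low values 0 of the 18 passed, 0 genes of any other list passed in any comparison, and of all 23073 genes 112 passed between Wnt1-Ribotag and mutant libraries, 99 of them lower in Wnt1-Ribotag and 13 higher. The split was the other way when the filter was applied, at 25 lower and 146 higher. In mutant libraries 4 of the 6 genes that passed averaged under 0.5 RPKM, among them Phox2a, Hand1 and Chga at 0.253, 0.0176 and 0.115, so these 4 entered the test through the Wnt1-Ribotag libraries. The median of the list was 2.90, and 16 of the 18 were at least 2-fold higher in all 4 pairs, against 3.34% of all genes. Of the 18, 7 averaged 0.5 RPKM or more in both groups, with a median of 2.52. Of these 7, 6 were at least 2-fold higher in all pairs, against 2.01% of all such genes. In the comparison with wild-type libraries 0 of the 18 passed in limma, with a median of 2.33, 7 at least 2-fold higher in all pairs (1.51% of all genes) and 8 (44.4%, against 17% of all genes) with an unadjusted p under 0.05 in the fit without a filter on low values. Between mutant and wild-type muscle 11 of the 18 were expressed highly enough to be tested and 0 passed in limma, with a median of -0.85, and without the filter 2 of the 18 (11.1%, against 9.34% of all genes) had an unadjusted p under 0.05.

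The sensory list differed less between the groups. Of its 26 genes, 14 could be tested in each comparison with Wnt1-Ribotag libraries and 0 passed in limma. Against wild-type libraries 8 were higher and 6 lower, with a median difference of 0.40, and against mutant libraries 10 were higher and 4 lower, with a median of 0.93. In the comparison with wild-type libraries, 9 of the 14 averaged 0.5 RPKM or more in both groups. Of these 9, 4 were higher in Wnt1-Ribotag, and their median difference was -0.05. Over all 26 genes without a filter on low values the medians were 0.12 and 0.25, and the medians of all 23073 genes were -0.003 and 0.003. An unadjusted p under 0.05 was found for 3 and 6 of the 26 (11.5% and 23.1%), against 17% and 17.3% of all genes. Against mutant libraries 2 of the 14 tested were at least 2-fold higher in all 4 pairs, against 3.34% of all genes. Of these 14, 7 averaged 0.5 RPKM or more in both groups. Among these 7, 0 were at least 2-fold higher in all pairs, against 2.01% of all such genes. Between mutant and wild-type muscle 10 of the 26 were tested, 9 of them lower, with a median of -0.31 and 0 past the threshold in limma, and 4 of the 26 (15.4%, against 9.34% of all genes) had an unadjusted p under 0.05 without the filter.

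Several transcription factors of sensory neurons were at or near the floor. Neurog1 and Neurog2, the proneural factors of sensory ganglia, had an RPKM of at most 0.00934 and 0.00998 in any library, and Neurod1 was at most at 0.0116. Pou4f3, a relative of Pou4f1 named after its values were seen, was at the floor in all 6 libraries. Runx3, used by proprioceptive neurons, was at 0.134 in Wnt1-Ribotag 1 and 0.251 in Wnt1-Ribotag 2, beside 0.149 in wild-type 5. A few factors were higher in Wnt1-Ribotag 2 than in the other libraries. Tlx3 was at 0.889 in Wnt1-Ribotag 1 and 3.69 in Wnt1-Ribotag 2 and at most 0.199 elsewhere, Prrxl1 at 0.127 and 1.94 and at most 0.137 elsewhere, and Prdm12, a factor of nociceptors, at 0.278 in Wnt1-Ribotag 2 and at or near the floor elsewhere.

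Receptors and channels of sensory neurons were mixed. Ret, a receptor subunit shared by sensory and autonomic neurons, had an RPKM of 1.29 and 5.55 in the Wnt1-Ribotag, 0.136 and 1.93 in the wild-type and 0.0434 and 0.106 in the mutant libraries. In Ret wild-type 6 was above Wnt1-Ribotag 1. Avil, an actin-binding protein of sensory neurons, was at 1.16 and 0.873 in the Wnt1-Ribotag libraries and between 0.250 and 0.364 in the others, without the higher value in Wnt1-Ribotag 2. Runx1, Ntrk2 and Ntrk3, at 3.40, 5.46 and 6.45 in Wnt1-Ribotag 1 and at 3.34, 1.53 and 3.03 in Wnt1-Ribotag 2, were not higher in library 2 either. The summed RPKM of the sensory list was 44.7 and 53.6 in wild-type 5 and 6, 42.8 and 35.2 in mutant 1 and 2, and 51.2 in both Wnt1-Ribotag libraries. It did not follow the sum of the members, whereas that of the sympathetic and chromaffin list was 19.1, 61.4, 25.4, 19.1, 116 and 574 in the same order.

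**Figure D3:**
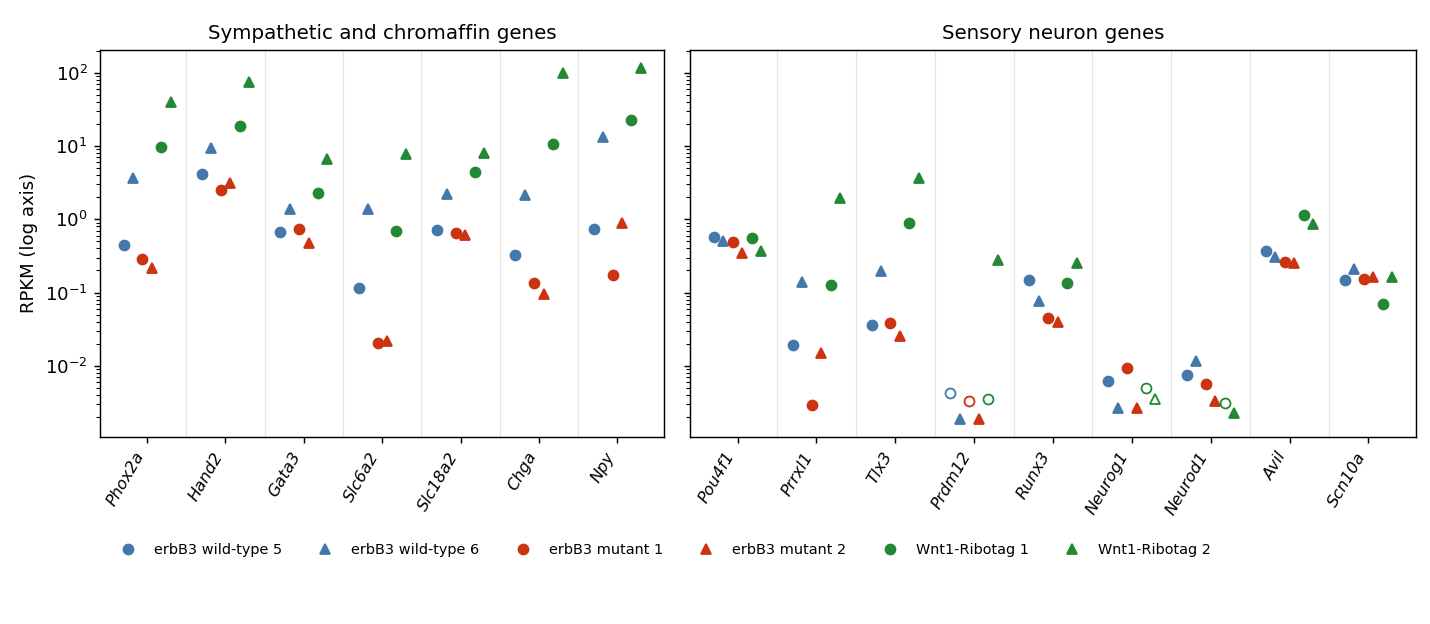
RPKM on a log axis of genes of the sympathetic and chromaffin list (left) and of the sensory neuron list with Pou4f1 (right), with 1 point a library and open symbols for values at the floor. The points of Wnt1-Ribotag 2 run from 6.55 (Gata3) to 118 (Npy) on the left and reach 3.69 (Tlx3) on the right.

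Defining factors of motor neurons and the enzyme that makes acetylcholine were low. Mnx1, Lhx3 and Lhx4, transcription factors of spinal motor neurons (Lhx3 and Lhx4 named after their values were seen), had an RPKM of at most 0.00666, 0.0145 and 0.0186 in any library, and Chat, the enzyme in question, was at most at 0.0564. Isl2, which motor and sensory neurons share, was at 0.790 in Wnt1-Ribotag 2 and at most 0.0925 elsewhere. Other genes of the motor neuron list were not low. Foxp1 had an RPKM of at least 7.22 and Chodl of at least 8.85 in every library. Aldh1a2 was at 33.6 and 36.6 in wild-type and 30.9 and 31.5 in mutant libraries, and lower in both Wnt1-Ribotag libraries. Summed over this list, RPKM was 52.4 and 58.8 in wild-type, 56.4 and 52.4 in mutant and 66.1 and 76.4 in Wnt1-Ribotag libraries. Pou3f1 was its most abundant gene in Wnt1-Ribotag libraries and Aldh1a2 in the others. Of 8 genes on the motor neuron list 4 were tested in each comparison, and only Pou3f1 passed. In Wnt1-Ribotag against mutant libraries, where 1.19% of all genes passed, it was higher by 5.48 (SE 0.32, adjusted p = 0.0046 in limma). In mutant against wild-type libraries, where 0.171% of all genes passed, its difference was -1.82 (SE 0.17, adjusted p = 0.00821 in limma). At 0.141 RPKM on average in mutant libraries, Pou3f1 entered both tests through the other group, and without the filter it did not pass in limma. It is also a factor of Schwann cells. In limma 0 of the 4 passed between Wnt1-Ribotag and wild-type libraries, and 2 of the 8 (25%, against 17% of all genes) had an unadjusted p under 0.05 without the filter. Of 10 cholinergic and parasympathetic genes, 9 are in the files. Of these, 0 reached an RPKM of 1 in Wnt1-Ribotag 1 and 4 did in Wnt1-Ribotag 2. These included Chrna3, a nicotinic receptor subunit of autonomic ganglia, at 0.171 and 5.31, and Vip, a peptide of parasympathetic neurons, at 0.00531 (the floor) and 3.65. The list's summed RPKM was 1.17 and 3.04 in wild-type, 1.19 and 1.28 in mutant and 2.72 and 15.3 in Wnt1-Ribotag libraries. Of its genes 5 were tested against wild-type and against mutant libraries, and 0 passed in limma in each. Over the 9 genes without the filter the medians were 0.48 and 0.52, and 0 and 2 (22.2%) had an unadjusted p under 0.05, against 17% and 17.3% of all genes.

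Most genes shared by neurons of all kinds had a higher average in the Wnt1-Ribotag libraries, but few of the differences passed the threshold. Of 32 such genes, 29 were tested against mutant libraries, each of the 29 was higher in Wnt1-Ribotag and 5 passed, against 1.19% of all genes, with 21 at least 2-fold higher in all 4 pairs, against 3.34%, and a median difference of 2.55. Of the 29, 12 averaged under 0.5 RPKM in mutant libraries and entered the test through Wnt1-Ribotag. Of the 17 others 2 passed, and the median was 2.18. Of these 17, 11 were at least 2-fold higher in all pairs, against 2.01% of all genes that averaged 0.5 RPKM or more in both groups. The 5 were Stmn3 (5.48, SE 0.71), Ina (4.32, SE 0.70), Mapt (4.05, SE 0.42), Gap43 (3.95, SE 0.61) and Gng3 (3.52, SE 0.37), with adjusted p from limma between 0.014 for Mapt and 0.0489 for Ina. Stmn3, Ina and Mapt averaged 0.258, 0.138 and 0.271 RPKM in mutant libraries, so these 3 are among the 12, and without the filter 0 of the 32 passed in limma and 23 (71.9%, against 17.3% of all genes) had an unadjusted p under 0.05. Against wild-type libraries 29 were tested and higher, 0 passed in limma (11 of the 32, or 34.4%, had an unadjusted p under 0.05 without the filter, against 17% of all genes) and 7 were at least 2-fold higher in all pairs (1.51% of all genes), with a median of 1.95. Between mutant and wild-type muscle 23 were tested, 21 of them lower, with a median of -0.54 and 0 past the threshold in limma, beside 6 of the 32 (18.8%, against 9.34% of all genes) with an unadjusted p under 0.05 without the filter. Snap25, a protein of synaptic vesicle release, had an RPKM of 0.497 and 2.5 in wild-type, 0.131 and 0.286 in mutant and 4.93 and 32.8 in Wnt1-Ribotag libraries. The RNA-binding protein genes Elavl3 and Elavl4 were at 2.35 and 1.85 in Wnt1-Ribotag 1 and at 13.5 and 7.48 in Wnt1-Ribotag 2. Rbfox3, a marker of mature neurons, was at most at 0.196 in any library and, unlike most of the list, lower in both Wnt1-Ribotag than in both wild-type libraries.

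Genes of other cell types moved with the libraries as well. Of the 20 Schwann cell genes, Fabp7 was the most abundant in Wnt1-Ribotag 2, Ngfr in Wnt1-Ribotag 1 and Pmp22 in the others. In Wnt1-Ribotag against mutant libraries, 10 of the 18 tested were higher past the threshold, and the median difference was 2.83. Of all genes, 1.19% passed in either direction. Of the 18, 9 averaged 0.5 RPKM or more in both groups, with a median of 1.98. Between the wild-type libraries the Schwann cell genes did not differ as the members did, with a median of -0.06 for wild-type 6 minus wild-type 5, while between the Wnt1-Ribotag libraries their median was 1.03. The summed RPKM of 12 liver genes was 553 and 171 in wild-type 5 and 6, 21.6 and 13.1 in mutant 1 and 2, and 308 and 212 in Wnt1-Ribotag 1 and 2, with Afp the most abundant in each library but mutant 2, where it was Alb. Liver genes were thus low in mutant muscle like the members, but lower in wild-type 6 than in wild-type 5, where the members had the opposite order. The summed RPKM of 12 erythroid genes, led by Hba-a1, was 14954, 7782, 11677, 9475, 6283 and 5824 in the same order, and that of 16 skeletal muscle genes, led by Mylpf, was 3665, 2943, 6224, 4335, 3301 and 3087. Against mutant libraries, where 1.19% of all genes passed, 9 of the 12 liver genes and 1 of the 12 erythroid genes were higher past the threshold in Wnt1-Ribotag. Mylpf was lower. Between mutant and wild-type muscle 4 of the 12 liver genes and 3 of the 14 Schwann cell genes tested, Sox10 and Fabp7 among them, were lower in the mutant past the threshold. Of all genes, 0.171% passed in this comparison. In mutant libraries 6 of the 10 Schwann cell genes and 3 of the 9 liver genes past the threshold against Wnt1-Ribotag averaged under 0.5 RPKM, as did all 3 Schwann cell genes and 1 of the 4 liver genes past it against wild-type libraries. None of the liver, erythroid and skeletal muscle genes was at the floor in any library, and of the Schwann cell genes Sox2 was, in mutant 1. The part of other tissue in the result for the neuronal genes was not tested.

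Over the 6 libraries the members were closely alike. Over the 6 points, Pearson's r of log2(RPKM + 0.5) between the 8 members other than Pou4f1 lay between 0.921 (Isl1 and Nefm) and 0.998 (Tubb3 and Dbh); the points share group and preparation, and r is given as a description. Among 14320 genes that averaged at least 0.5 RPKM over the 6 libraries, those most like Tubb3 were Dbh, Tdg and Mapt (r from 0.9969 to 0.9979), and those most like Dbh were Scrn1, Phox2a and Tubb3 (r from 0.9979 to 0.9985). Hand1 was among the 3 genes most like Th, most like Stmn2 were Vstm2l, Stmn3 and Msh5, and most like Nefl were Nrsn2, Prph and Kif5c. Prph was most like Nefm, Plekha6 and Nefl, and Nefm most like Prph, Plekha6 and Nefl. Isl1 was most like Sirt1, Syn2 and Senp6, with r from 0.9962 to 0.9998. Pou4f1 had too low a mean to enter.

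For letters known from promoters of catecholamine genes, the 250 bases before the RefSeq starts of the members were searched. RefSeq promoters on GRCm38.p6 were found for 6 of the 9 genes, Tubb3, Prph, Isl1, Pou4f1, Th and Dbh. GENCODE annotates 250 of the 250 bases for Dbh and 129 for Tubb3 as exon, downstream of the annotated gene starts, so for Dbh no sequence before the annotated start was searched and its matches are not given. The motifs were the cyclic AMP response element TGACGTCA, which reads the same on both strands, the homeodomain core ATTA on either strand, and CATCTG on either strand, and no match overlapped another in the Th window. In windows of 250 bases, 1.55% of 32851 promoters of all genes held TGACGTCA, 54.9% held ATTA and 14.4% held CATCTG. TGACGTCA occurred once in Th, from 45 bases before its start, and not in Tubb3, Prph, Isl1 or Pou4f1. ATTA occurred 2 times each in Th and Isl1 and not in Tubb3, Prph or Pou4f1, and CATCTG in none of these 5. The Th sequence is shown, because Th spread most between libraries, as the 231 bases at chr7:142900015-142900245 on the minus strand of GRCm38.p6, which are upstream of the first exon of the main Th transcript and lie in an intron of longer annotated Th transcripts. Capitals mark the cyclic AMP response element and the homeodomain core on either strand, and a match is a description of the sequence only.
Th: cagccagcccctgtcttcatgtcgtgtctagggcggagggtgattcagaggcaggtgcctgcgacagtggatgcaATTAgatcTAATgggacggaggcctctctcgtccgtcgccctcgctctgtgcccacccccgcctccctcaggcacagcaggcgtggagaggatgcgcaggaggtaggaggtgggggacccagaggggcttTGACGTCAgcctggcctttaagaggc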

How the data were processed

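The authors deposited RPKM, normalized to gene length and mapped reads, with 23073 genes holding a value. The submitters' processing notes name the aligner STAR and the build mm9, and versions are not given in the sources used here. Gene symbols and positions were taken from GENCODE M21 on GRCm38 by gene identifier. Depth was read from the floor of 223 microRNA genes, and the value agreed to a tolerance of 0.0001 in 81.2% of them. Differences were fitted by limma 3.58.1 (lmFit, eBayes with trend) in R 4.3.3 on log2(RPKM + 0.5), with Benjamini-Hochberg adjustment over all genes tested and a threshold of 0.05, on the 4 libraries compared. Summaries and figures used Python 3.11.15, numpy 2.4.6, pandas 2.3.3 and matplotlib 3.10.9. The code was tested on simulated data. The members and lists were chosen with earlier results of these data known. Genes named were the 9 members, the 3 most abundant genes of a list in Wnt1-Ribotag or wild-type libraries, list genes past the threshold, a set of lineage factors, enzymes, transporters and receptors, and the 3 genes most correlated with each member. The lists cover neurons in general, sensory, sympathetic and chromaffin, cholinergic and motor neurons, Schwann cells, melanocytes, muscle, liver, erythroid, endothelial, macrophage and connective tissue genes.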

Additional observations from a re-analysis of the deposited data

How the results depend on the processing

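Of the log2 fold changes of single members under the alternatives, 271 kept their direction and side of the threshold, 47 kept their direction and newly passed, 9 kept it and no longer passed, and 2 changed sign. Those were Pou4f1 between Wnt1-Ribotag and wild-type libraries, at 0.0264046 without Wnt1-Ribotag 2 and from -0.163269 to 0.0264046 over the libraries left out, and Isl1 between mutant and wild-type libraries, at 0.267899 without wild-type 6 and from -0.753808 to 0.267899.

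Between Wnt1-Ribotag and wild-type libraries, 0 members passed, and from 0 to 8 did when a library was left out. At least 2-fold different in all pairs were 3 members, 0 at 3-fold, and from 3 to 8 with a library left out. Between Wnt1-Ribotag and mutant libraries, 4 members passed. This became 0 with no filter on low values, 2 after quantile normalization, 7 at an adjusted p threshold of 0.1, and from 7 to 8 with a library left out. With replicate numbers as a block it became 8, and all genes past the threshold rose from 171 to 842 (5.88%). Whether libraries of the same number share more than the number is not given in the sources used here. Between mutant and wild-type libraries, 0 members passed, and from 0 to 7 did with a library left out. At least 2-fold different in all pairs were 0, 1 at 1.5-fold, and from 0 to 7 with a library left out. The cause of these changes was not tested. The median difference between the Wnt1-Ribotag libraries, 2.13, lay between 1.96 and 2.16 under the alternatives.

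With 2 libraries a group, calls depend on single libraries, and a lone library is assumed to vary like the other group. Read counts were not used here, so counting error near the floor is unknown.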

Other observations

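The other lists gave the following values. The summed RPKM of 7 melanocyte genes, led by Kit or Mitf, was 3.14 and 3.26 in wild-type 5 and 6, 2.8 and 1.92 in mutant 1 and 2, and 3.94 and 4.71 in Wnt1-Ribotag 1 and 2. Of these genes 2 were tested in each comparison and 0 passed in limma, and without the filter 1, 2 and 0 of the 7 (against 17%, 17.3% and 9.34% of all genes) had an unadjusted p under 0.05 for Wnt1-Ribotag against wild-type, Wnt1-Ribotag against mutant and mutant against wild-type libraries.

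In the order wild-type 5 and 6, mutant 1 and 2, and Wnt1-Ribotag 1 and 2, the sum of 8 endothelial genes was 55.4, 59.5, 62.2, 46.7, 44.6 and 42.8. The sum of 8 macrophage genes, led by C1qb or C1qa, was 163, 143, 130, 160, 79.5 and 73.5, and that of 8 connective tissue genes, led by Col3a1, was 2889, 2851, 3040, 2139, 2064 and 2158. In limma 0 genes of these lists passed in any comparison. For Wnt1-Ribotag against wild-type libraries 0, 6 and 4 genes had an unadjusted p under 0.05 without the filter, against 17% of all genes, and the medians were -0.36, -0.91 and -0.62.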
